A study of Mus musculus with 8 samples.

Results

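The subunits of respiratory complex I were followed in RNA-seq of mouse ventricles at embryonic day 15.5. Members were the protein-coding genes named Ndufa, Ndufb, Ndufc, Ndufs or Ndufv with a number, Ndufab1, and the genes mt-Nd1 to mt-Nd6 with mt-Nd4l. Assembly factors and pseudogenes were left out. The rule found 44 genes among the 53465 of the table, 37 encoded in the nucleus and 7 in the mitochondrial genome, and all 44 had counts high enough to be tested. The WT group held 4 libraries of wild-type ventricles. The other 4 libraries, called Flox as in their labels, carry the genotype Nrg-1flox;Cdh5-CreERT2, in which tamoxifen switches on a Cre recombinase driven by the endothelial Cdh5 promoter, the aim being to delete the floxed gene of neuregulin-1, Nrg1. By the submitters' design note a replicate is 1 ventricle, which the sex-linked RNA given below goes against for 7 of the 8 libraries. The sources used here give the Flox group no tamoxifen dose or time, and do not say whether WT embryos received it. Cre activity is aimed at endothelial cells, whereas RNA of whole ventricles comes from every cell type, so that fewer cells of a type and less RNA per cell cannot be told apart.

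Complex I (NADH:ubiquinone oxidoreductase) takes electrons from NADH, passes them to ubiquinone and pumps protons across the inner mitochondrial membrane. It is L-shaped, with a matrix arm that binds NADH and holds the iron-sulfur clusters and a membrane arm that pumps. The core of the membrane arm is translated inside the mitochondrion from the mt-Nd genes, and every other subunit is made in the cytosol and imported, so that both genomes must supply parts of 1 enzyme. Heart muscle is rich in this complex, and cardiomyocyte mitochondria mature during fetal life.

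Libraries held 16761763 to 24144272 expected counts, which are estimates in which a read matching several genes is divided between them. Levels are given as CPM, the usual depth-scaled count, with TMM factors (a correction for library composition, here 0.988 to 1.01). Nrg1 itself averaged 4.87 ± 0.636 CPM in WT and 6.17 ± 0.611 CPM in Flox libraries (SD over 4 libraries each), with a log2 fold change of 0.34 and an adjusted p of 0.311 by edgeR. Its mean was higher in Flox libraries (unadjusted p 0.0138 by edgeR, with values that overlapped), the direction opposite to the intended loss. The targeted gene thus did not check the labels, and directions below are those of libraries labelled Flox. Of 12 cardiomyocyte markers 12 were tested, the lowest (Nkx2-5) at 92.2 CPM or more in each library, as were 12 of 12 endothelial markers, at 20.4 CPM or more. The endothelial sum was 1500 to 1540 CPM in WT and 1400 to 1500 CPM in Flox libraries, and none of these 12 passed the test (lowest FDR 0.0584). Of these endothelial markers 10 of 12 had a log2 fold change below 0 (median -0.09), 6 of them at an unadjusted p below 0.05, and 5 (Kdr, Tie1, Esam, Erg and Cldn5) were lower in every Flox than in any WT library. Of all genes tested by edgeR, 5.41% were lower at that unadjusted p and 2.98% were lower without overlap. The part of the endothelial markers in the subunit levels was not tested. Of the cardiomyocyte markers 1 passed and was higher (Nkx2-5, 0.21, FDR 0.0194). All 9 atrial markers had a log2 fold change below 0 (median -0.17), and 1 passed and was lower (Kcnj3, -0.46, FDR 0.0261). Of all genes tested by edgeR, 0.312% passed and were higher and 0.214% lower. No fibroblast, mural, epicardial, erythroid or macrophage marker passed. The log2 fold change was above 0 for 7 of 7 epicardial (median 0.12), 9 of 11 tested erythroid (0.12) and 7 of 10 macrophage markers (0.04). It was below 0 for 6 of 8 mural (-0.12) and 6 of 8 fibroblast markers (-0.06). In edgeR's fit 4 mural, 2 epicardial, 1 fibroblast, 1 erythroid and 1 macrophage marker had an unadjusted p below 0.05. Of all tested genes 10.5% had. The part of these markers in the subunit levels was not tested. Libraries also differed in sex-linked RNA. In 7 of 8 libraries Xist, which female cells express, was at 103 to 327 CPM while 4 Y-linked genes, which male cells express, summed to 42.9 to 122 CPM. Material of a single embryo would not hold both, so that these 7 libraries appear to mix RNA of both sexes, whereas WT library 4 had 0.176 CPM of Xist and 171 CPM of Y-linked RNA. The Y-linked sum was 69.3 to 171 CPM in WT and 42.9 to 120 CPM in Flox libraries, and how many embryos a library holds is not known.

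The subunit genes that the results turn on are Ndufb2, which differed between groups, and the mt-Nd4l and mt-Nd4 pair. Of the nuclear members 33 of 37 had a promoter in the RefSeq table (build GRCm38.p6, 250 bases before to 50 bases after the gene start). The promoter of Ndufb2 (chr6:39592315-39592614, plus strand) is shown because this gene moved apart from the others. Capitals mark TGACGTCA, the letters of the cyclic AMP response element (CRE), to which CREB-family factors bind.
Ndufb2 promoter: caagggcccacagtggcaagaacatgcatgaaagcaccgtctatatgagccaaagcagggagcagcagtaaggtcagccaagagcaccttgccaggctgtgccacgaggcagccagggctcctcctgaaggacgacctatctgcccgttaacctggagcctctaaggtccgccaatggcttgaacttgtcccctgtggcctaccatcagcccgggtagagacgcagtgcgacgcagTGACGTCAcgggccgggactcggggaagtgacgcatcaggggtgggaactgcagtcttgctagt
The same letters, searched on both strands, were present in the promoters of 3 of the 33 members (Ndufa10, Ndufa11 and Ndufb2). They were present in 1.79% of all 32851 promoters of that length. A member counted if any promoter under its symbol held the letters, whereas each share is over single promoters. Counts and shares here and below thus differ in unit. Ndufa10 and Ndufa11 did not pass the test described below. The letters AAGATGGCG, part of the site of the factor YY1, were found in 5 of 33 members (Ndufa9, Ndufc1, Ndufs4, Ndufs6 and Ndufs7) and in 1.4% of all promoters. The letters GCATGCGC, part of the NRF1 site, were found in 3 of 33 (Ndufa6, Ndufa8 and Ndufa11) and in 2.71% of all. The ETS letters CCGGAAG were found in 4 of 33 and in 8.86% of all. CCAAT was found in 10 of 33, Ndufb2 included, and in 37.4% of all, the E-box CACGTG in 2 of 33 and in 7.15%, and the GC-box GGGCGG in 15 of 33 and in 35.7%. Of the letters searched, the promoter of Ndufb2 thus held those of the CRE and CCAAT, and a match or its absence in this window is a description of letters only.

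Of the mitochondrial members 2 pairs of neighbours overlap. The last bases of mt-Nd4l are the first of mt-Nd4, and both are known to be carried on a single messenger RNA. The stretch chrM:10137-10203 (GRCm38, plus strand) is shown with the 7 shared bases in capitals, because this pair was the one that was lower without overlap between the groups. The expected counts of both genes were whole in all 8 libraries. The end of mt-Nd5 likewise shares 14 bases with mt-Nd6, which is read from the opposite strand, and chrM:13522-13595 is shown on the plus strand with those bases in capitals.
mt-Nd4l to mt-Nd4: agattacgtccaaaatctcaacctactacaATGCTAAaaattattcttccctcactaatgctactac
mt-Nd5 to mt-Nd6: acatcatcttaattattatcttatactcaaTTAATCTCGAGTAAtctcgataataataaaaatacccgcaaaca

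The order of subunit levels in WT ventricles was set first by the genome of origin. Per kilobase of transcript, the 7 mitochondrially encoded genes ranged from 1068 to 6112 CPM with a median of 2427, and the 37 nuclear genes from 38.6 to 637 CPM with a median of 177, so that the sets did not overlap. Among mitochondrial genes mt-Nd1 was highest at 6112 ± 195 CPM per kilobase (SD, n = 4), followed by mt-Nd4 (3831 ± 32.9), mt-Nd2 (2738 ± 72.1), mt-Nd4l (2427 ± 26.6), mt-Nd5 (2343 ± 34.1), mt-Nd6 (2127 ± 25.1) and mt-Nd3 (1068 ± 163). The WT libraries of each gene in this order lay above those of the next without overlap, mt-Nd5 and mt-Nd6 included. Of the 7, mt-Nd6 is the only one read from the other mitochondrial strand. The strand setting of the counts is not given, so reads of the opposite strand cannot be told apart from those of mt-Nd6. The libraries were made from polyadenylated RNA, so these levels also depend on the tails of each mitochondrial transcript, which was not tested. The values of mt-Nd4 (3831) and mt-Nd4l (2427) differed although both are carried on a single messenger RNA. The order is thus that of counts per kilobase and need not be that of transcript number. Ndufa4 had the highest nuclear level, 637 ± 24.4 CPM per kilobase (SD, n = 4). It was named as a complex I subunit but is now known to be part of complex IV. The lowest was Ndufb4, an accessory subunit of the membrane arm, at 38.6 ± 1.68 CPM per kilobase. Transcript length decides part of this order, because Ndufb2 has principal transcripts of 455 and 4371 bases, which place it 30th or last (13.4 CPM per kilobase) of the 37.

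**Figure D1:**
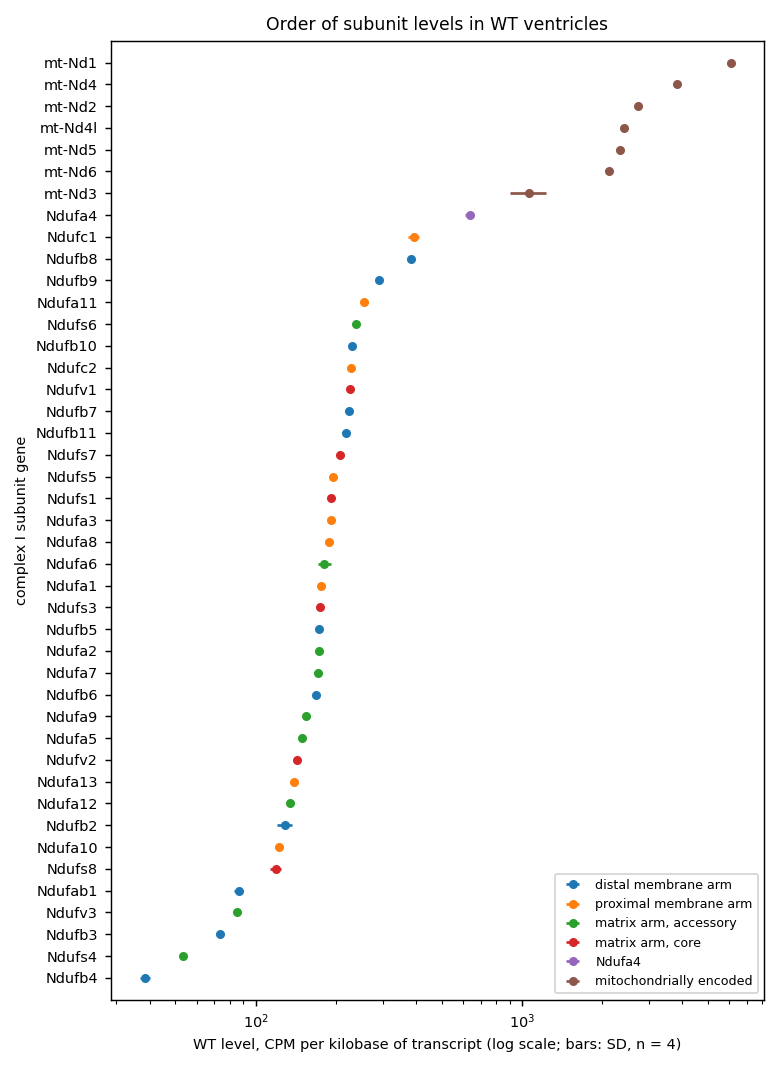
WT levels of 43 subunit genes in CPM per kilobase of the shortest principal transcript, on a log scale (points: mean of 4 libraries; bars: SD), coloured by role. The 7 mitochondrially encoded genes, from 1068 to 6112, all lie above the 36 nuclear genes drawn, from 38.6 to 637.

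Groups were compared with edgeR's quasi-likelihood test over 15388 genes, with Benjamini-Hochberg adjustment (FDR) and a threshold of 0.05. Of the 44 members, 1 passed, Ndufb2, which was higher in Flox libraries. Across all tested genes 0.526% passed, 0.312% higher and 0.214% lower. No member was lower at this threshold. An unadjusted p below 0.05 was reached by 2 members, 1 higher and 1 lower, where 10.5% of all tested genes reached it (5.13% higher, 5.41% lower). Values of the 2 groups did not overlap for 3 members, 1 higher and 2 lower, against 6.05% of all tested genes (3.07% higher, 2.98% lower). The members' share was thus above that of all tested genes at the adjusted threshold, through Ndufb2 alone, below it for the unadjusted p, and near it for values without overlap. In total 16 members had a log2 fold change above 0 and 28 did not, with a median of -0.01, against a median of -0.00123 over all tested genes, of which 49.4% were above 0. The 36 nuclear members other than Ndufb2 lay between -0.06 and 0.09, with FDR of 0.611 or more and 95% confidence intervals that together spanned -0.18 to 0.207. All 36 intervals lay within 0.25 of 0 on the log2 scale.

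**Figure D2:**
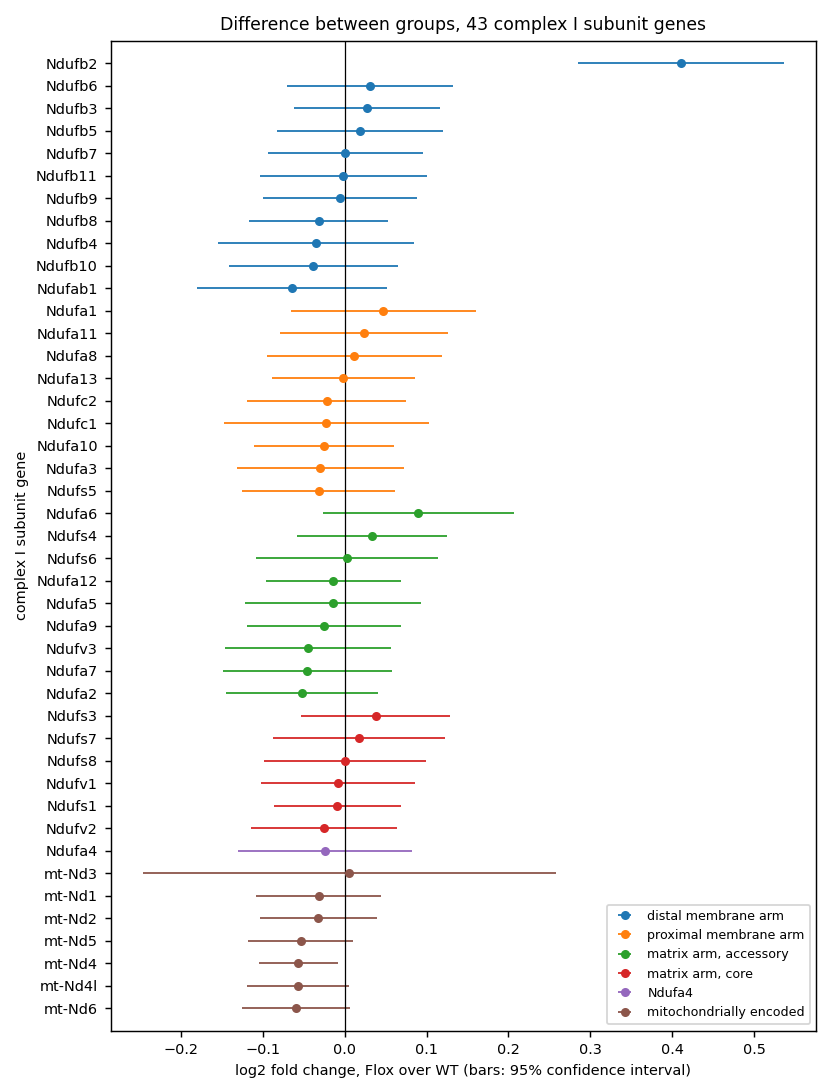
Log2 fold change of each of 43 subunit genes, Flox over WT, with its 95% confidence interval from edgeR's fit, grouped by role. Ndufb2 lies at 0.41 with an interval of 0.285 to 0.537, and the other nuclear members lie between -0.06 and 0.09.

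Ndufb2 encodes a small accessory subunit at the far end of the membrane arm (ENSMUSG00000002416, GRCm38 chromosome 6, 39592574 to 39603382, plus strand). WT libraries 1 to 4 held 64.1, 57.5, 57.4 and 55.6 CPM of its RNA, and Flox libraries 1 to 4 held 73.1, 72, 82.6 and 84.7 CPM. All Flox libraries were thus above all WT libraries, with a gap from 64.1 to 72 CPM. Ndufb2 rose by 32.9%, with means of 58.7 ± 3.73 and 78.1 ± 6.5 CPM (SD over 4 libraries) and 0.41 as log2 fold change (SE 0.0582, edgeR's FDR 0.0118). The value was 0.37 to 0.46 in 21 alternatives, of which 19 passed (FDR from 1.63e-08 to 0.0534). Without WT library 2 the FDR was 0.0514 and without Flox library 3 it was 0.0534.

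Reads of Ndufb2 could be shared with other genes, because its expected counts were not whole in 87.5% of libraries. Only neighbours were examined, and matching sequences elsewhere in the genome were not. Ndufb2 shares 145 exonic bases with Gm42420 on the same strand, a predicted gene with 0 to 20.2 expected counts per library against at least 1266 for Ndufb2. With both summed, an alternative chosen after seeing the data, the log2 fold change was 0.41 (FDR 0.0125). The end of its longest transcript overlaps the opposite strand of Braf, which averaged 30.9 ± 2.42 and 32.8 ± 1.99 CPM in the WT and Flox groups (FDR 0.681). Which of its transcripts the additional counts came from was not analysed here, as the counts are per gene.

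Ndufb2 also ran against the other subunits within the Flox group. Flox library 4 held the highest Ndufb2 of the 8 libraries (84.7 CPM), yet it had the lowest value of all 8 for 34 of the 37 nuclear members. Flox library 2 had the highest value for 30 of the 37, while its Ndufb2, at 72 CPM, was the lowest of the Flox group. As a share of all nuclear subunit RNA, Ndufb2 made up 1.01%, 0.917%, 0.89% and 0.897% in WT libraries 1 to 4. In Flox libraries 1 to 4 the shares were 1.13%, 1.08%, 1.31% and 1.47%. The shares did not overlap between the groups, and no test is given for them because the gene was singled out with earlier results known.

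**Figure D3:**
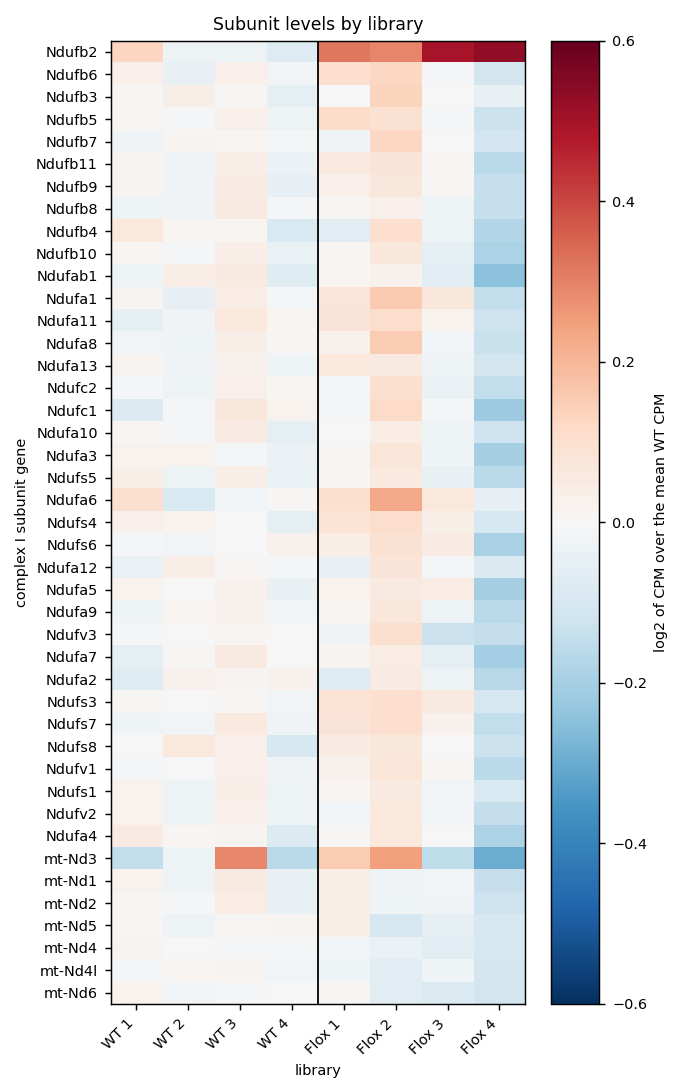
Level of each of 43 subunit genes (rows) in each of the 8 libraries (columns), as log2 of its CPM over the mean WT CPM (colour). The row of Ndufb2 is red in all Flox libraries, and Flox library 4 is blue in nearly all other rows.

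The other accessory subunits of the distal membrane arm, where Ndufb2 lies, did not rise with it. Of the 11 members placed there 5 were above 0, 1 passed (Ndufb2) and the median was -0.00160. Ndufb11, which is X-linked (chromosome X, 20615326 to 20617619), averaged 198 ± 4.7 and 198 ± 14.4 CPM in the WT and Flox groups. Its log2 fold change was -0.00160 (FDR 0.996). Ndufab1, the mitochondrial acyl carrier protein, had the lowest log2 fold change of the nuclear members, -0.06 (FDR 0.744), and was named after its values were seen. Ndufb4 averaged 37.4 ± 1.63 and 36.4 ± 2.86 CPM, and its log2 fold change was -0.03 (FDR 0.892).

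In the proximal membrane arm the 9 nuclear members had a median of -0.02, and none passed (lowest FDR 0.824). Ndufa1, a small X-linked subunit needed for assembly of the complex (chromosome X, 37187588 to 37191163), had levels of 71.5 to 76.3 CPM in WT and 66.9 to 82.6 CPM in Flox libraries, which overlapped. Its log2 fold change was 0.05 (FDR 0.824). For Ndufb11 the WT values, 193.5 to 203.7 CPM, likewise lay within the Flox range of 177.3 to 209 CPM. Neither X-linked member differed beyond the spread between libraries. Xist, which female cells express from the silenced X chromosome, averaged 120 ± 86.3 and 244 ± 97.6 CPM in the same groups.

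The matrix arm holds the 7 nuclear core subunits, which carry the NADH site, the flavin and the iron-sulfur clusters. None of them passed, 4 of 7 were above 0, and the median was 0.000823. Ndufs1, the largest, measured 503.1, 486.2, 510.6 and 485.6 CPM in the 4 WT libraries. The 4 Flox libraries held 500, 515.9, 491 and 466 CPM, so that Flox library 2 was above and Flox library 4 below all WT libraries. Its log2 fold change was -0.01 (95% confidence interval -0.0862 to 0.0681, FDR 0.966). Ndufv1, which binds NADH, averaged 377 ± 5.62 CPM in WT and 375 ± 25.1 CPM in Flox libraries, with a log2 fold change of -0.01 (FDR 0.976). For its partner Ndufv2 these means were 243 ± 5.21 and 239 ± 13.8 CPM (-0.03, FDR 0.894).

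Ndufs3 averaged 183 ± 1.46 and 188 ± 11.8 CPM in WT and Flox libraries (FDR 0.828). Its WT libraries stayed between 180.6 and 183.8 CPM while Flox libraries ranged from 170.2 to 195.7 CPM. Ndufs7 averaged 158 ± 4.53 and 160 ± 12.1 CPM (FDR 0.947). Ndufs8, which with Ndufs7 carries iron-sulfur clusters near the membrane, averaged 93 ± 4.38 and 92.9 ± 5.61 CPM (FDR 0.997). The SD was larger in Flox than in WT libraries for all 44 members.

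The 9 accessory subunits of the matrix arm had a median of -0.01, and none passed. Ndufa6, which sits beside an acyl carrier protein in the complex, had the largest log2 fold change of a nuclear member after Ndufb2, 0.09 (95% confidence interval -0.0271 to 0.207, FDR 0.611). Its levels were 100.5 to 114.6 CPM in WT and 103.4 to 125.3 CPM in Flox libraries. Ndufa4, set apart as a complex IV subunit, averaged 288 ± 11 and 283 ± 20.5 CPM (log2 fold change -0.02, FDR 0.922).

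None of the 7 mitochondrially encoded members passed in edgeR's test (lowest FDR 0.391), and 1 had an unadjusted p below 0.05. DESeq2 and limma voom also called 0, with 3 and 2 at an unadjusted p below 0.05. The share of all tested genes at that p was 10.5% with edgeR. It was not determined for DESeq2 and limma voom, so their counts cannot be set against a share. The log2 fold change was below 0 in 6 of 7, with a median of -0.05. For mt-Nd4 (ENSMUSG00000064363), a proton-pumping subunit, WT libraries held 5340, 5284, 5257 and 5235 CPM and Flox libraries 5218, 5132, 5029 and 4922 CPM. For mt-Nd4l, its partner on the shared transcript, WT libraries held 715.2, 725.6, 729.5 and 713.2 CPM and Flox libraries 707.4, 688.5, 707.4 and 668.1 CPM. Both genes were lower in every Flox library than in any WT library, by small amounts. The log2 fold change was -0.06 for both, with an SE of 0.0225 and FDR 0.391 for mt-Nd4 and an SE of 0.029 and FDR 0.536 for mt-Nd4l, so that neither passed. They were the 2 members that were lower without overlap, and as they share a transcript they do not count as separate cases. As a share of all mt-Nd RNA the groups were close, with 25.8% ± 0.417 and 25.6% ± 0.448 for mt-Nd4 and 3.53% ± 0.0531 and 3.5% ± 0.0755 for mt-Nd4l in WT and Flox libraries.

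**Figure D4:**
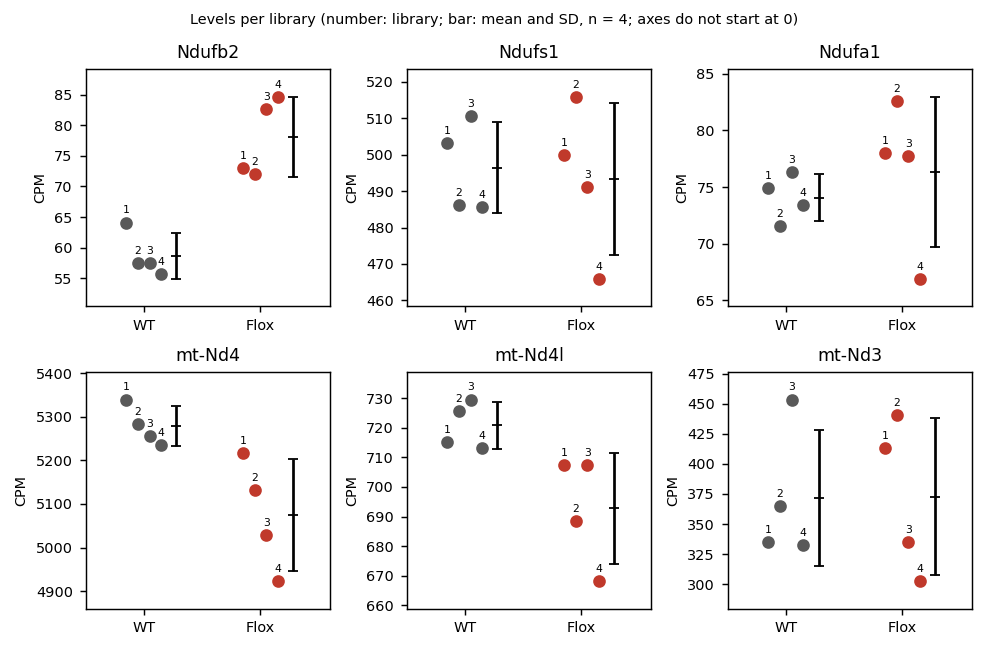
CPM of 6 subunit genes in each library (points, numbered by library) with the mean and SD of each group of 4; the axes do not start at 0. Ndufb2 was 55.6 to 64.1 in WT and 72 to 84.7 in Flox libraries, whereas Ndufs1, Ndufa1 and mt-Nd3 overlapped between the groups.

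Of the other mitochondrial members, mt-Nd6 averaged 1104 ± 13 CPM in WT and 1059 ± 39.2 CPM in Flox libraries (log2 fold change -0.06, FDR 0.540). Whether its counts include reads of the opposite strand was not tested. The long pumping subunit mt-Nd5 averaged 4274 ± 62.2 and 4118 ± 181 CPM (-0.05, FDR 0.575). For mt-Nd1, next to the ubiquinone site, the means were 5850 ± 186 and 5722 ± 299 CPM, and for mt-Nd2, the third pump, 2842 ± 74.9 and 2779 ± 125 CPM, with log2 fold changes of -0.03 each. In all 4 genes Flox library 1 lay within or above the WT range. The least even gene was mt-Nd3. WT libraries held 335.1, 365.3, 453.6 and 332.4 CPM of it and Flox libraries 413.2, 441.1, 334.9 and 302.2 CPM, so that WT library 3 and Flox libraries 1 and 2 stood above the other 5. Its log2 fold change was 0.01 with an SE of 0.117, against SEs of 0.0225 to 0.0353 for the other 6. Its expected counts were not whole in 87.5% of libraries.

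Summed over genes, the nuclear members amounted to 6331, 6270, 6452 and 6203 CPM in the 4 WT libraries and to 6441, 6674, 6302 and 5767 CPM in the 4 Flox libraries. The mitochondrial members amounted to 20600, 20190, 20840 and 20130 CPM (WT) and 20760, 19870, 19810 and 18830 CPM (Flox). Flox library 4 was lowest in both sums. The ratio of the mitochondrial to the nuclear sum was 3.25, 3.22, 3.23 and 3.25 (WT) and 3.22, 2.98, 3.14 and 3.27 (Flox), so that the groups overlapped, with SDs of 0.015 and 0.127. The median log2 fold change was -0.00847 for nuclear and -0.0538 for mitochondrial members, a difference of 0.0453. The nuclear minus mitochondrial median deviation, taken library by library, had a pooled SD of 0.0464. That SD describes single libraries and not a difference between groups of 4, so that the difference cannot be judged by it. Whether the difference lies beyond its own spread was not tested.

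**Figure D5:**
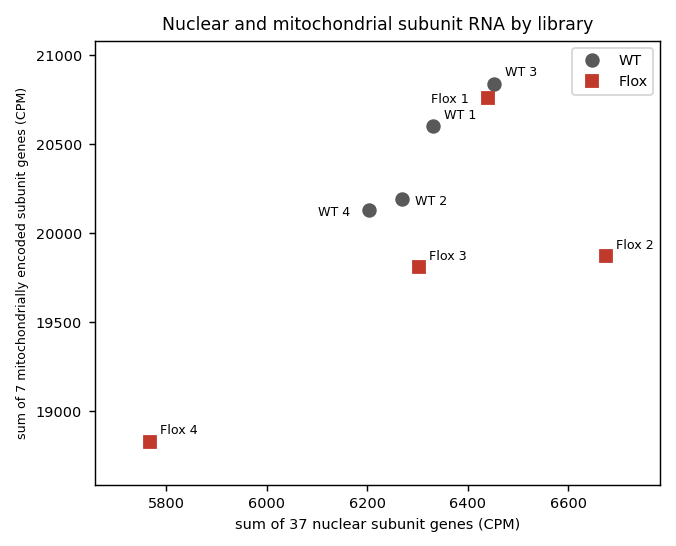
Summed CPM of the 37 nuclear (x axis) and 7 mitochondrially encoded (y axis) subunit genes in each library. WT libraries lie close together (6203 to 6452 and 20130 to 20840), while Flox library 4 is lowest on both axes and Flox library 2 highest in nuclear RNA only.

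The direction of the nuclear members rested on single libraries. Without Flox library 4, 34 of 37 had a log2 fold change above 0, with a median of 0.0352, and without Flox library 2, 5 of 37 did, with a median of -0.0369. After adjusting for the Y-linked sum, which was lower in most Flox libraries, 2 of 37 nuclear and 0 of 7 mitochondrial members were above 0, with medians of -0.0745 and -0.0688, while Ndufb2 was at 0.46 (FDR 0.0387). In edgeR's fits, 8 of 37 nuclear members had an unadjusted p below 0.05 after that adjustment and 5 without Flox library 4. With all libraries and no adjustment it was 1. The share of all genes at that p was not determined for the 2 altered fits. Flox library 4 was the shallowest (16761763 expected counts). The sum of the 12 cardiomyocyte markers was 38200 CPM there against 42500 to 42700 CPM in the other Flox libraries and 38700 to 42700 CPM in WT libraries. The sum of erythroid markers (11 of 12 tested) was 10000 CPM there, against 4310 to 9410 CPM in WT and 5890 to 6910 CPM in the other Flox libraries. The part of these differences in the subunit levels was not tested.

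Genes that act on complex I or share its genome were then examined. Of 16 assembly factors, which build the complex without remaining in it, 15 were tested and none passed, at a median of -0.03 with 7 above 0. In edgeR's fit 3 of them had an unadjusted p below 0.05, as had 10.5% of all tested genes. The largest difference was that of Ndufaf8 (0.39, FDR 0.0976), which averaged 11.8 ± 1.66 and 15.4 ± 1.01 CPM in groups that overlapped. The 6 other protein-coding genes of the mitochondrial genome had a median of -0.03, with 2 above 0 and none passing. Among them mt-Co3 had the largest difference (0.19, FDR 0.458). The gene of this list with the smallest p, mt-Cytb (-0.08, FDR 0.298), was named after its values were seen and lay at 6520 to 6704 CPM in WT and 5952 to 6492 CPM in Flox libraries, lower without overlap as were mt-Nd4 and mt-Nd4l. The mitochondrial ribosomal RNAs, of which polyadenylated libraries catch a part, took 0.137% to 0.141% of counts in WT and 0.137% to 0.177% in Flox libraries, and mt-Rnr1 had a log2 fold change of 0.20 (FDR 0.472). None of the 14 genes of mitochondrial transcription and RNA handling passed, nor did any of the 10 regulators of mitochondrial biogenesis, with medians of 0.04 each. Their largest differences were those of the transcription factor Tfb2m (0.12, FDR 0.334) and the coactivator Ppargc1b (0.17, FDR 0.550).

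Among the 43 nuclear subunits of complexes II to V, 18 were above 0 and the median was -0.00936, close to the nuclear members of complex I. In that list 3 passed and were higher, all of complex IV (cytochrome c oxidase), where 0.312% of all tested genes passed and were higher. Cox6a1 was at 280.9 to 320.5 CPM in WT and 339.8 to 363.5 CPM in Flox libraries (0.26, FDR 0.0208). Cox5b was at 190.9 to 214 and 221.2 to 248.6 CPM (0.23, FDR 0.0454), and Cox8a at 245.1 to 270.5 and 284.4 to 311.9 CPM (0.22, FDR 0.0415). Like Ndufb2, they encode accessory subunits, but so do most nuclear members of complex I that did not pass. In each of the 4 genes WT library 1 was the highest WT library, which was seen after they had passed. How often that holds over all genes was not examined. The largest differences in the other complexes were those of Sdha in complex II (-0.04, FDR 0.818), Cyc1 in complex III (0.07, FDR 0.643) and Atp5g2 in complex V (-0.43, FDR 0.0817), none of which passed. Whether complex I differs from the other complexes in its share of such genes was not tested.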

How the data were processed

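RNA of ventricles was measured in 8 libraries, 4 per group, at embryonic day 15.5. Per the labels, 100 ng of total RNA gave polyadenylated, directional libraries, sequenced as single reads of 60 bases. The table the authors deposited holds expected counts by gene, and the submitters' processing notes name cutadapt, RSEM 1.3.1 and GRCm38, and the table's name Ensembl release 91. The aligner and strand setting are not given in the sources used here. Of all values, 18.1% were not whole (tolerance 0.005). Depth limits precision, and p-values measure the spread between these libraries. No pair of libraries agreed within sampling noise (lowest chi-square over its degrees of freedom, 2.93).

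Expected counts were rounded. Symbols, positions and transcript lengths came from GENCODE M21 (same assembly; 53360 of 53465 identifiers matched). Counts were filtered with filterByExpr (15388 genes), scaled with TMM and compared with edgeR 4.0.16 (glmQLFit, glmQLFTest, two-sided, group as only term) in R 4.3.3. Levels between genes used the shortest APPRIS principal transcript. The quasi-likelihood fit, the likelihood ratio test and the GC and length correction (for a GC trend) were tried on simulated data. The log2 fold changes put in were larger than that of any member, and the other fits were not simulated. Members, lists and tests were chosen with earlier results of these data known. Named members were Ndufb2, the mt-Nd genes, the nuclear core, X-linked members, those passing or not overlapping, the 3 smallest p in each direction, and the nuclear members with the highest and lowest level per kilobase. Genes of the assembly, respiratory complex and other mitochondrial lists were named when they passed or had the largest change of their list. Cell type markers were named when they passed, and endothelial markers also when lower without overlap. The values of 1 member, which entered the fit and the counts, are not reported here. Whether same-numbered libraries pair is given with the alternatives, which were other scalings (RLE, upper quartile, totals), filters, tests (likelihood ratio, DESeq2 1.42.0, limma 3.58.1 voom), a replicate block, a Y-linked covariate, a GC and length correction (lowess, span 0.3), other thresholds, and leaving out mitochondrial genes or each library. Figures used matplotlib 3.10.9.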

Additional observations from a re-analysis of the deposited data

Results flagged for a closer look

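Each subunit gene and each summed level was examined for a library standing apart within its group of 4. That held for 3 of the 94 groups, and chance flags about 4.7 of that many (1 in 20). For Ndufa5, an accessory matrix-arm subunit, Flox library 4 gave 113.3 CPM and the other Flox libraries 132.2 to 135.3 CPM. For Ndufa2, of the same arm, WT library 1 gave 93.84 CPM and the other WT libraries 100.1 to 100.7 CPM. For the core subunit Ndufs7, WT library 3 gave 164.5 CPM and the others 155 to 156.2 CPM. None of these genes passed the test between the groups.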

How the results depend on the processing

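Depth and the 4 libraries per group limit which differences could be detected, and the cause was not tested for any value here. Over all genes the count of 81 calls (48 higher, 33 lower) became 338 without a low count filter, 242 with the likelihood ratio test, 198 with DESeq2, 16 after adjusting for Y-linked RNA (12 higher, 4 lower), 3 at FDR 0.01 and 190 at FDR 0.1. It was 11 to 142 when 1 library was left out (11 without Flox library 3, 14 without WT library 2, 20 without WT library 3, 142 without Flox library 4). The count of nuclear members called was 1, Ndufb2, in all alternatives other than FDR 0.01 (0 by edgeR, with 1 at an unadjusted p below 0.05) and leaving out WT library 2 or Flox library 3 (range 0 to 1). No mitochondrial member was called in any alternative that held them. The nuclear minus mitochondrial median was -0.00571 after adjusting for Y-linked RNA and 0.0153 to 0.0751 when 1 library was left out. The nuclear median was then -0.0369 to 0.0352 and the mitochondrial one -0.0658 to -0.0399.

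Log2 fold changes near 0 changed sign. Ndufs8 was at -0.0035 with upper quartile scaling, -0.0017 with library totals and -0.0021 without a filter. After adjusting for Y-linked RNA, mt-Nd3 was at -0.17, Ndufs3 at -0.027, Ndufs7 at -0.055, Ndufs8 at -0.094 and Ndufa1 at -0.03. The GC and length correction gave -0.022 for mt-Nd3 and 0.0065 for Ndufb11, and leaving out mitochondrial genes gave 0.00011 for Ndufb11. When 1 library was left out, the ranges were -0.056 to 0.0027 for mt-Nd1, -0.084 to 0.12 for mt-Nd3, -0.029 to 0.017 for Ndufs1, -0.01 to 0.067 for Ndufs7, -0.029 to 0.04 for Ndufs8, -0.035 to 0.037 for Ndufv1, -0.054 to 0.011 for Ndufv2, -0.027 to 0.047 for Ndufb11, -0.053 to 0.025 for Ndufa4 and -0.085 to 0.0047 for Ndufb4.

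Libraries with the same number correlated at 0.0998, 0.0474, 0.0447 and 0.121 in their deviations from the group means, and the 12 other pairs at -0.0877 to 0.0195. As not every value was over 0.1, the libraries were taken to share only a number, although each correlated best with its own. In a fit with replicate block, 93 genes passed (59 of the 81 among them), Ndufb2 was at 0.41 (FDR 0.0178) and Ndufs8 at -0.0017, and no call on a member changed.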
